A study of Xenopus laevis with 3 samples.

Results

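The Notch pathway and the proneural basic helix-loop-helix (bHLH) transcription factors were examined in the inner ear of juvenile Xenopus laevis. Members were chosen by name alone: a gene entered if its symbol was that of a Notch receptor, ligand, fringe, numb, mind bomb, presenilin, mastermind or rbpj gene, or of the hes, hey, neurod, neurog, atoh, ascl or id families. This gave 34 genes of the 9240 named genes on the array, represented by 64 Xl-PSIDs (probe sets that the array's maker gave to X. laevis transcripts). Of these, 55 were of the plain class, while 4 s_at, 4 x_at and 1 a_at probe sets can match several transcripts. All 64 probe sets were matched to RefSeq by Entrez ID, and no symbol differed.

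The animals were post metamorphic frogs of about 3 months of age, with no treatment or altered allele named in the labels. Replicates 1, 2 and 3 held inner ear RNA of 5, 5 and 6 pooled animals, whose weights averaged 9.0 ± 0.2, 9.6 ± 0.1 and 9.6 ± 0.1 g. Each pool was hybridised to 1 GeneChip array, so the series forms 1 group of n = 3 arrays and no comparison between stages was made. A pool hides the spread between animals, and precision is limited by the small number of arrays.

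Notch is a receptor that is activated by ligands of the Delta and Jagged families on the neighbouring cell. The gamma-secretase complex then cuts the receptor, and its intracellular part joins the DNA-binding protein Rbpj and a mastermind coactivator to switch on hes and hey genes. These encode bHLH repressors that hold back proneural bHLH genes, which drive cells towards a neuronal or sensory fate. In the vertebrate ear this exchange between neighbours sorts hair cells from supporting cells, and proneural factors are needed for the neurons of the ear ganglion. Id proteins lack a DNA-binding region and sequester the partners of proneural factors.

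Values are GCRMA intensities in arbitrary units (a.u.) on the log2 scale, where unexpressed probe sets lie near 2. Detection was set at a mean of 4 a.u. or more. The study required this mean intensity before it called a probe set upregulated, and its use for detection was chosen here. Median values were 7.57, 7.49 and 7.53 a.u. on replicates 1, 2 and 3, and Pearson's r over all probe sets was 0.994 to 0.995 between arrays. In bulk tissue fewer cells of a type and less RNA per cell cannot be told apart, and the level of 1 probe set cannot be set against that of another.

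The receptor, both ligands, the genes grouped with the nuclear complex and the id genes were detected. The hes and hey family was detected in 5 of 13 genes and the proneural factors in 1 of 6. Of the 64 probe sets, 34 (53.1%) were detected, whereas 72.8% of all probe sets with 1 gene symbol and 64.4% of all probe sets were. By gene, 19 of 34 (55.9%) had a detected probe set, and 80.2% of named genes did. The share of detected members was thus below the background on each count. It was also below the background at minimums of 3, 5, 6 and 8 a.u., where 56.2%, 50%, 48.4% and 43.8% of member probe sets were detected beside 76%, 69.9%, 66.6% and 56.4% of those with 1 symbol.

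A limma test (one-sided, for a mean above 4), adjusted over all 32539 probe sets by Benjamini-Hochberg, passed 32 member probe sets (50%) of 18 genes, beside 62.2% of all probe sets. Adjusted p-values of those 32 ran from 5.54e-06 to 0.0102. The detected probe sets that missed the threshold were 1 for the ligand dll1 and 1 for the proneural factor neurod1. The test used the same arrays and the same minimum as detection, so passing was largely set by detection. Over all probe sets, 20942 were detected and 20228 passed. Of the 30 member probe sets below the minimum, 27 were under 2.5 on every array and spanned at most 0.02 between arrays, with means from 1.83 to 2.30 a.u.

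**Figure D1:**
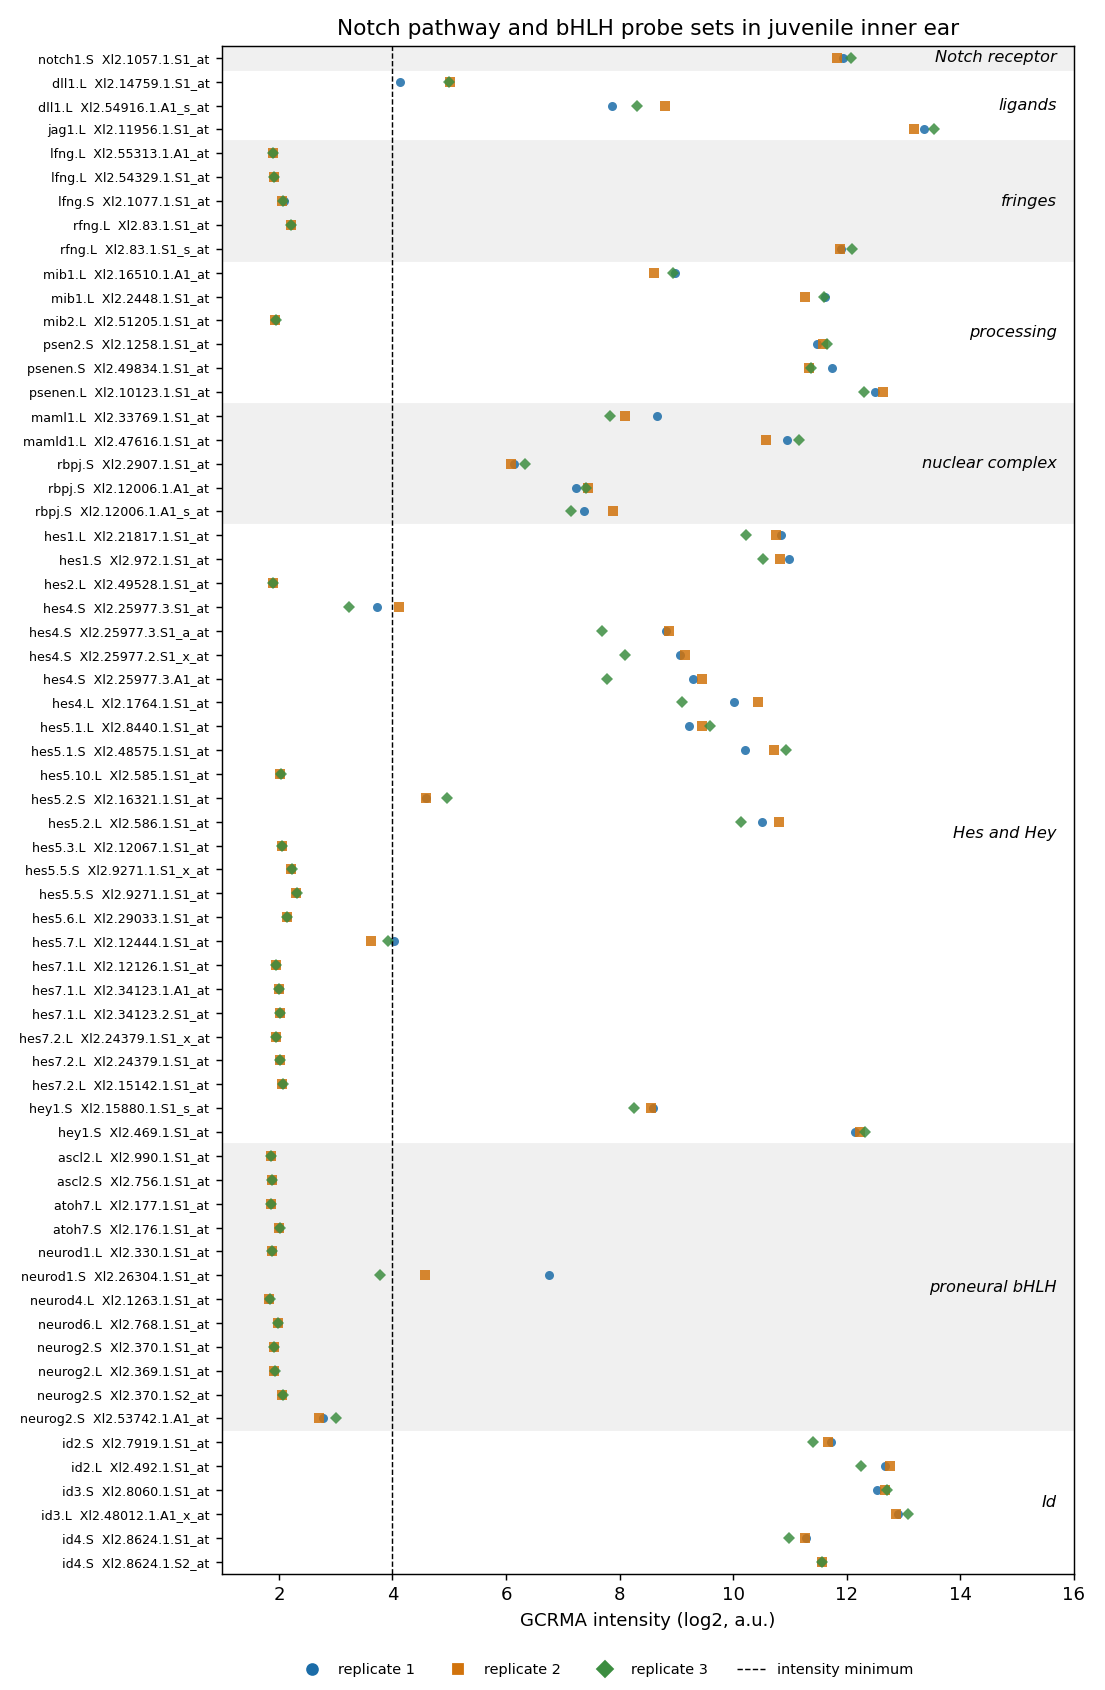
GCRMA intensity (log2, a.u.; horizontal axis) of all 64 member probe sets on the 3 arrays, grouped by role, with a point for each replicate and a dashed line at the minimum of 4 a.u. The receptor, nuclear complex and Id probe sets lie right of the line on every array, whereas 11 of the 12 proneural probe sets have a mean left of it and neurod1.S is spread from 3.78 to 6.75 a.u.

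The only receptor among the members was notch1. The notch1.S probe set read 11.94, 11.84 and 12.08 a.u. on replicates 1, 2 and 3, a mean of 11.95 ± 0.12 (SD, n = 3; limma adjusted p = 2.56e-05). All arrays lay within 0.25 a.u. of each other.

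Both ligands were detected. The probe set for jag1.L, whose product marks the prospective sensory patches of the vertebrate ear, read 13.36, 13.18 and 13.53 a.u. (13.36 ± 0.17; limma adjusted p = 3.17e-05). The ligand dll1, which nascent hair cells are known to carry in other vertebrates, had a pair of probe sets, both above the minimum. An s_at probe set for dll1.L read 7.87, 8.80 and 8.30 a.u. (8.33 ± 0.46; limma adjusted p = 0.000869). A plain probe set for dll1.L read 4.14, 5.02 and 5.00 a.u. (4.72 ± 0.50; limma adjusted p = 0.0658). Replicate 1 was the lowest on both probe sets. The limma adjusted p of the plain probe set was 0.00147, 0.205 and 0.238 without replicates 1, 2 and 3. Its mean without replicate 1 was 5.01 a.u. Over all alternatives the adjusted p ran from 0.00147 to 1. Those alternatives include tests against other minimums, so that range is not the spread of a single test.

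Fringe enzymes add a sugar to Notch that tunes its choice of ligand. All probe sets for lfng, which marks supporting cells in other vertebrates, were at the floor: those for lfng.L read 1.90, 1.90 and 1.90 a.u. and 1.91, 1.91 and 1.91 a.u., and that for lfng.S read 2.09, 2.06 and 2.07 a.u. The probe sets for rfng.L went apart. An s_at probe set read 11.90, 11.88 and 12.10 a.u. (11.96 ± 0.12; limma adjusted p = 2.49e-05), whereas a plain probe set bearing the same cluster number read 2.21 a.u. on each array. The s_at class can match several transcripts, so detection of rfng rested on that probe set alone.

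Genes that process ligand and receptor were detected with the exception of mib2. The ubiquitin ligase mib1, which acts on Notch ligands so that they are taken up by the cell that sends the signal, had values of 11.62, 11.27 and 11.59 a.u. on one mib1.L probe set and 8.98, 8.60 and 8.95 a.u. on another. Replicate 2 was the lowest on both. Its relative mib2 was at the floor, with a mean of 1.94 a.u. for mib2.L.

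Both gamma-secretase members were detected. Transcripts for psen2.S, the catalytic subunit, read 11.47, 11.59 and 11.66 a.u. (11.57 ± 0.09). The small subunit psenen read 12.49, 12.63 and 12.30 a.u. for the L homeolog (12.47 ± 0.17), and 11.74, 11.33 and 11.36 a.u. for the S homeolog (11.48 ± 0.23). The L and S homeologs are the copies of a gene left by the ancient genome duplication of this frog, and those of psenen did not share their lowest array.

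All 3 measured genes grouped with the nuclear complex were detected. The coactivator maml1.L read 8.65, 8.09 and 7.83 a.u. (8.19 ± 0.42), and mamld1.L, which shares a mastermind-like domain, read 10.95, 10.58 and 11.16 a.u. For rbpj.S, the DNA-binding partner of the cut receptor, 3 probe sets were present, and their arrays fell in 3 different orders. An s_at probe set read 7.36, 7.88 and 7.13 a.u. (7.46 ± 0.38). A plain probe set read 7.24, 7.44 and 7.42 a.u. (7.36 ± 0.11) and was among the 6 detected members of smallest range, and another plain one read 6.14, 6.09 and 6.33 a.u. (6.19 ± 0.13).

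The hes and hey family was divided. Of its 13 genes, 5 were detected, namely hes1, hes4, hes5.1, hes5.2 and hey1, by 12 of 26 probe sets, and all 12 passed the limma test. The general Notch effector hes1 read 10.85, 10.76 and 10.22 a.u. for hes1.L and 10.98, 10.83 and 10.52 a.u. for hes1.S, with replicate 3 lowest in each. The repressor hey1, known from supporting cells in other vertebrates, read 12.15, 12.24 and 12.31 a.u. (12.24 ± 0.08; limma adjusted p = 1.58e-05) on 1 probe set. An s_at probe set for hey1.S read 8.59, 8.56 and 8.26 a.u., with another order of the arrays.

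Among 7 measured hes5 copies, hes5.1 and hes5.2 were detected. These genes belong to a tandem family in frogs, several members of which are best known from the embryonic neural plate and presomitic mesoderm. The probe set for hes5.1.L read 9.21, 9.45 and 9.60 a.u., and that for hes5.1.S read 10.21, 10.72 and 10.93 a.u. Replicate 1 was the lowest and replicate 3 the highest on both. Values of hes5.2.L were 10.50, 10.80 and 10.13 a.u., and those of hes5.2.S were 4.59, 4.59 and 4.96 a.u. (limma adjusted p = 0.0102), so the homeologs did not share their lowest array.

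The copy hes5.7 lay just under the minimum, at 4.02, 3.62 and 3.92 a.u. (3.85 ± 0.21). Probe sets for hes5.3, hes5.5, hes5.6 and hes5.10 lay between 2.02 and 2.31 a.u. on every array, with at most 0.01 between the arrays of a probe set. Both hes7 copies were at the floor on all probe sets, with means from 1.94 to 2.06 a.u. The same held for hes2.L, at 1.89 a.u. Several of these genes had probe sets for only 1 homeolog, and the call of not detected speaks for the probe sets used here alone.

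The proneural factors were nearly all at the floor. Of 6 genes and 12 probe sets, 1 gene and 1 probe set reached the minimum and none passed the limma test. Probe sets for ascl2, a stem cell factor of the mammalian gut, and for atoh7, which is needed for retinal ganglion cells, had means from 1.86 to 2.01 a.u. for both homeologs. The neuronal factors neurod4.L and neurod6.L read 1.83 and 1.99 a.u. on every array. The factor neurog2 sets out the primary neurons of the frog embryo. The neurog2.L probe set read 1.92, 1.92 and 1.92 a.u., and a pair of neurog2.S probe sets read 1.92, 1.92 and 1.92 a.u. and 2.06, 2.06 and 2.07 a.u. A further probe set for neurog2.S read 2.77, 2.71 and 3.00 a.u., under the minimum on every array.

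The exception was neurod1, a factor required for the survival of ear ganglion neurons in mice. The neurod1.S probe set read 6.75, 4.57 and 3.78 a.u. on replicates 1, 2 and 3 (5.04 ± 1.54), while the neurod1.L probe set was at 1.88 a.u. on each array. Replicate 1 stood 2.18 above replicate 2 and 2.97 above replicate 3. The limma adjusted p was 0.233, and it was 0.504, 0.322 and 0.203 without replicates 1, 2 and 3. Over all alternatives it ran from 0.0728 to 1. Those alternatives include tests against other minimums, so that range is not the spread of a single test. The mean stayed at 4 or more without any 1 array, at 4.18, 5.27 and 5.66 a.u. without replicates 1, 2 and 3.

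All 3 id genes and all 6 of their probe sets were detected. For id3 an x_at probe set, of a class that can match several transcripts, read 12.90, 12.87 and 13.07 a.u. for the L homeolog (12.95 ± 0.11). A plain probe set read 12.52, 12.68 and 12.71 a.u. for the S homeolog (12.64 ± 0.10). For id2 the values were 12.66, 12.76 and 12.26 a.u. for the L homeolog (12.56 ± 0.27), and 11.73, 11.68 and 11.40 a.u. for the S homeolog. A probe set for id4.S read 11.54, 11.57 and 11.56 a.u. (11.56 ± 0.01; limma adjusted p = 5.54e-06), a range of 0.03. A further id4.S probe set read 11.27, 11.26 and 10.98 a.u., so that its lowest array, replicate 3, was not shared.

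Of 21 member genes with several probe sets, 3 (rfng, hes4 and neurod1) had probe sets on either side of the minimum, and among all named genes this was the case for 1274 of 3936 (32.4%). Of 25 genes listed here for a role in the inner ear (besides hes5 copies), 14 were measured. The list was made from general knowledge, and a role in the ear was not tested. The remaining 11 had no probe set with 1 gene symbol and were not analysed here, among them notch2, jag2, dll4, hes6, hey2, neurod2, neurog1, neurog3, atoh1 and id1. They include the proneural factors best known from hair cells and from ear neuroblasts.

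The next question was which members differed between the pools. A difference of 1.5 or more on the log2 scale, the difference minimum used here, was found for 2 of 64 member probe sets (3.12%) and for 2.36% of all probe sets. Among detected probe sets it was found for 2 of 34 members (5.88%) and for 2.89% of all. These shares rest on 2 probe sets, neurod1.S and 1 of hes4.S. Without replicate 1 only hes4.S remained, and without replicate 3 only neurod1.S remained, so the count was 1 in each case. The median range of detected members was 0.38, close to 0.37 for all detected probe sets. With 1 array per pool these differences have no replicate and no test was made.

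The spread depends on intensity, so the ranges were also set beside those of probe sets of like mean, with bins chosen after the values were seen. Of 2225 probe sets with a mean from 4 to below 6 a.u., 12% had a range of 1.5 or more, and of the 3 members in this bin neurod1.S did. Of 5803 probe sets with a mean from 8 to below 10 a.u., 6.91% had a range of 1 or more, and 4 of the 9 members in this bin did. All of those 4 were hes4 probe sets.

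**Figure D2:**
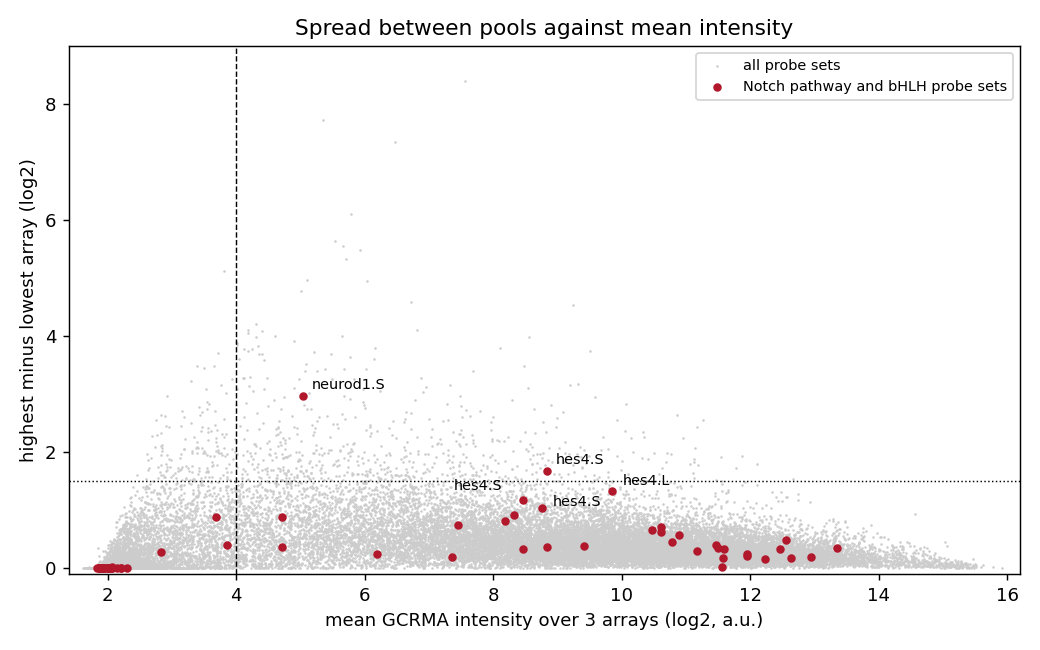
Highest minus lowest array (log2; vertical axis) against mean GCRMA intensity (log2, a.u.; horizontal axis) for all probe sets (grey) and the 64 members (red), with lines at a mean of 4 and a range of 1.5. The 5 members of largest range are named, and neurod1.S (2.97) and a hes4.S probe set (1.68) lie above the line at 1.5, while other members lie below it.

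The hes4 gene, known in frog embryos from the floor plate and the border of the neural plate, gave the most probe sets that varied. For hes4.L the values were 10.01, 10.43 and 9.09 a.u. (9.85 ± 0.69). For hes4.S they were 9.29, 9.45 and 7.78 a.u. (8.84 ± 0.92) on a plain probe set. The a_at probe set for hes4.S read 8.81, 8.87 and 7.70 a.u. (8.46 ± 0.66), and the x_at probe set read 9.06, 9.14 and 8.10 a.u. (8.77 ± 0.58). Replicate 3 was thus the lowest and replicate 2 the highest on all 4. The same order was seen on another probe set for hes4.S with a mean below the minimum, at 3.72, 4.11 and 3.23 a.u. The hes4.S probe sets bear 1 cluster number and are not independent measurements, whereas hes4.L has a cluster of its own. Matching of L probe sets to S transcripts was not checked, and all were read on the same 3 arrays.

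The agreement of probe sets within a gene was then counted for all members. In 5 of 12 genes with several detected probe sets (41.7%) the arrays fell in the same order on each of them, and this was so for 27% of all such genes. The 5 genes were hes4, hes1, hes5.1, dll1 and mib1. Of 7 genes with a detected L and a detected S probe set, 4 (hes1, hes4, hes5.1 and id2) had their lowest array in common. Among all such genes this share was 51.7%, so the members were close to the background. Probe sets of 1 cluster share sequence, and these counts were chosen after the values were seen.

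**Figure D3:**
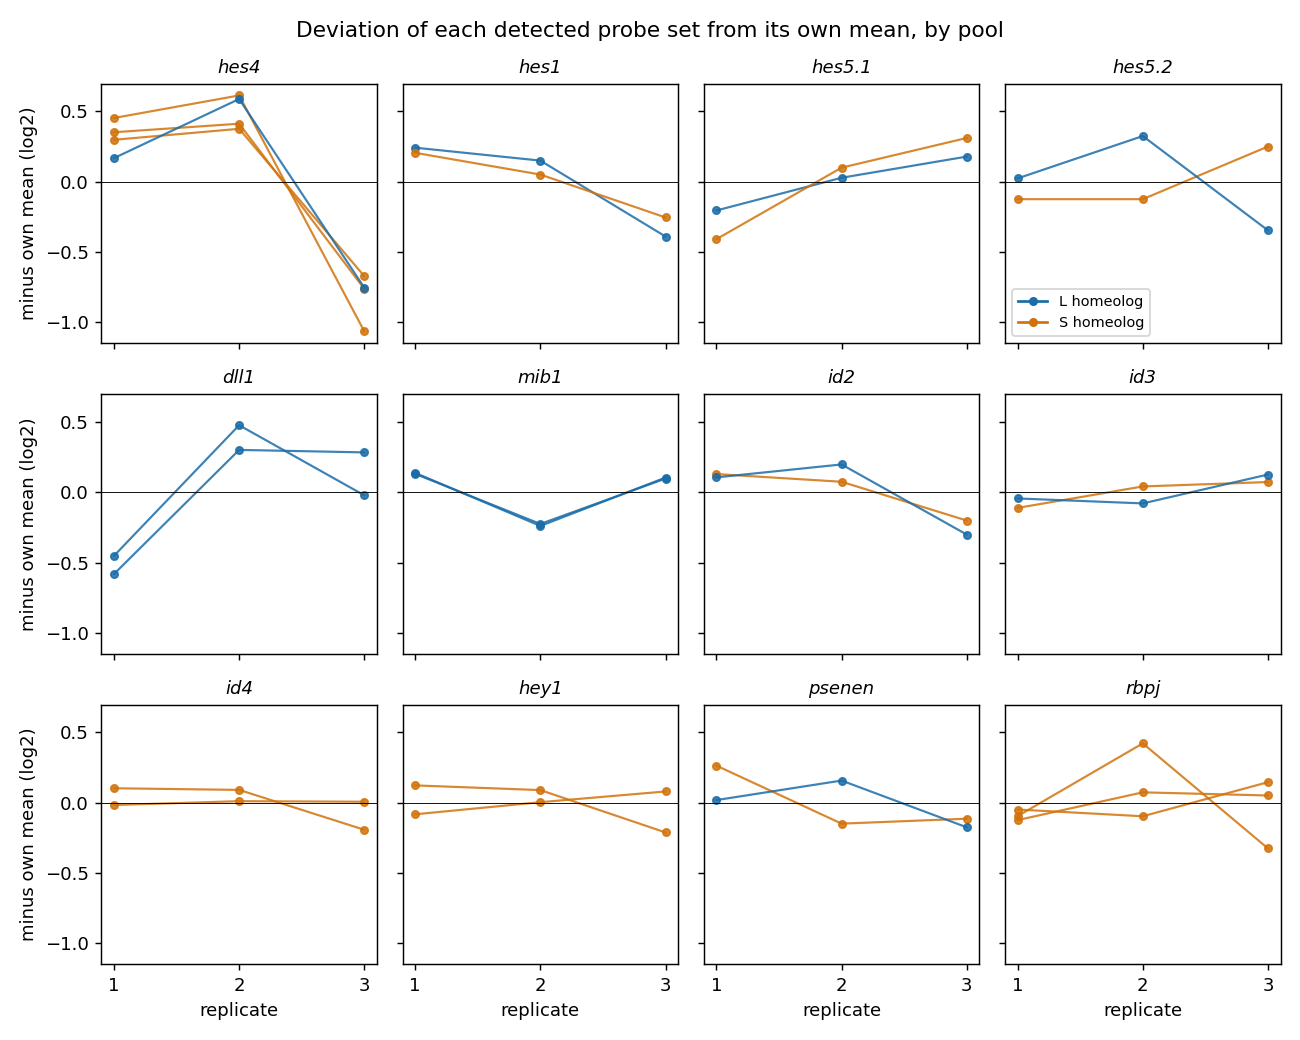
Deviation of each detected probe set from its own mean over the arrays (log2; vertical axis) by replicate (horizontal axis) for the 12 member genes with several detected probe sets, with L homeologs in blue and S homeologs in orange. Lines join the values of 1 probe set and imply no order of the pools; the 4 hes4 probe sets fall together on replicate 3, while the lines of rbpj, psenen and hes5.2 cross.

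A common shift of the members between pools was not tested. Of the 34 detected probe sets, 10, 9 and 15 were lowest on replicates 1, 2 and 3, which is 29.4%, 26.5% and 44.1%. Among all detected probe sets these shares were 31.2%, 35.2% and 33.6%. The hes4 probe sets account for 4 of the 15. Both probe sets of hes1 and both of id2 were also among the 15, whereas both of hes5.1 were highest on replicate 3. The median deviation of the detected members from their own means was 0.02, 0.05 and -0.01 on replicates 1, 2 and 3.

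Markers of other cell types moved between the same pools. Of 20 measured neuron markers, 18 were detected, and of their 30 detected probe sets 27 were highest on replicate 1 and 21 were lowest on replicate 3. The linear intensities of all 38 probe sets of the measured neuron markers, detected or not, summed to 106287, 75699 and 62096 on replicates 1, 2 and 3. Among the defining neuron markers, elavl3 (1.97 a.u.) and syt1 (2.80 a.u.) were not detected. The markers gap43 (11.95, 12.39 and 12.08 a.u.) and prph (7.91, 8.01 and 6.77 a.u.) were highest on replicate 2. The pools thus ranked by summed neuron markers as they did by neurod1.S. That order was not particular to neuron markers. Summed supporting cell markers (112094, 107574 and 107055) and summed proliferating cell markers (11067, 10595 and 10331) shared it. Summed Schwann cell markers gave the same order, at 105659, 96718 and 88728, but the single genes differed. Of their 12 detected probe sets, 6 were lowest on replicate 2 and 6 on replicate 3. By the probe set of highest mean, pmp22, ncam1, foxd3 and cnp were lowest on replicate 2, and mbp and sox10 on replicate 3. The hair cell marker calb1 had the order of neurod1.S (9.35, 7.58 and 6.96 a.u.), whereas summed hair cell markers were lowest on replicate 2. The part of neuron content or of other cell types in the neurod1.S result was not tested.

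Most skeletal muscle markers were highest on replicate 3. Of 16 measured genes 14 were detected, and 20 of their 25 detected probe sets were highest there. By the probe set of highest mean, 11 genes were highest on replicate 3 and 3 on replicate 1. Those 3 were myh4 (9.22, 6.70 and 6.62 a.u.), myh8 (7.87, 3.86 and 5.22 a.u.) and atp2a1 (11.91, 11.79 and 11.69 a.u.). The summed linear intensity of all 34 probe sets of the measured muscle markers was 12980, 11194 and 26135 on replicates 1, 2 and 3. The muscle regulators myog (2.09 a.u.) and myod1 (1.97 a.u.) were not detected. Replicate 3, the lowest array for hes4, was therefore the lowest for most neuron markers and the highest for most muscle markers. The part of either in the hes4 values was not tested.

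Supporting cell markers, counted without members, had median deviations of 0.03, 0.02 and 0.02 on replicates 1, 2 and 3. Of 12 measured genes 10 were detected, among them sox2 (11.83 ± 0.17), otoa (12.98 ± 0.11) and gjb2 (14.89 ± 0.03), and prox1 and cdkn1b were not. None of their 16 detected probe sets had a range of 1 or more. The summed linear intensities of all 19 probe sets of the measured genes were 112094, 107574 and 107055. Among the probe sets of highest mean for each gene, the widest were slc1a3, at 12.48, 11.60 and 12.35 a.u., and fgfr3, at 5.36, 6.20 and 6.15 a.u. Of 6 measured hair cell markers, myo6, ush1c, calb1 and pvalb were detected, while barhl1 and lhx3 were at the floor. The marker pvalb (12.22, 11.91 and 12.54 a.u.) was highest on replicate 3, as most muscle markers were, whereas myo6, ush1c and calb1 were highest on replicate 1. The cell source of the pvalb signal was not tested.

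**Figure D4:**
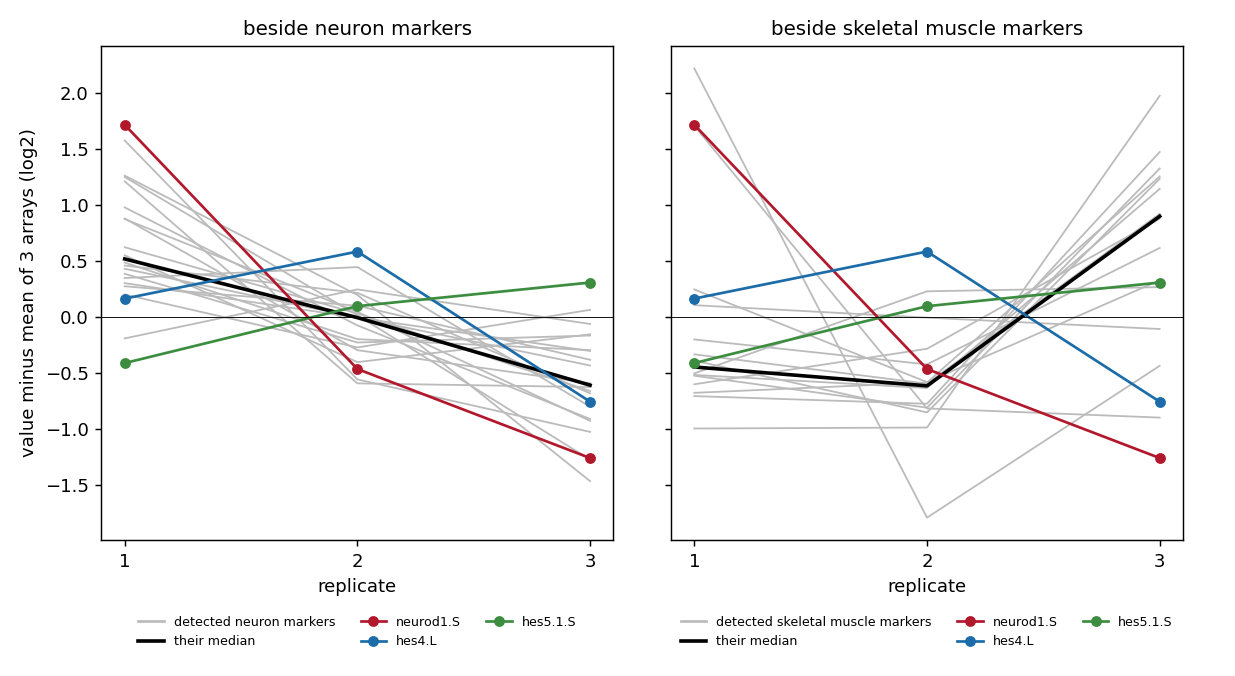
Value minus the mean over the 3 arrays (log2; vertical axis) by replicate (horizontal axis) for neurod1.S, hes4.L and hes5.1.S beside the detected neuron markers (left, 18 genes) and skeletal muscle markers (right, 14 genes) in grey, with the marker median in black. Lines join the values of 1 probe set and imply no order of the pools; the neuron median was 0.52, 0.00 and -0.61 and the muscle median -0.44, -0.61 and 0.90 on replicates 1, 2 and 3.

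Other genes linked to the Notch pathway were examined as a list, which also held genes such as hdac1, ncor1, dvl1 and epn1. Of 58 listed genes 37 were measured, and 34 were detected and passed the limma test, while 80.2% of all named genes were detected. By probe set, 47 of 62 were detected, beside 72.8% of all probe sets with 1 gene symbol, so that count was near the background. The list held adam10, the protease that makes the first cut of the bound receptor (13.29 ± 0.07), furin, which cleaves the receptor during its maturation (12.92 ± 0.09), and aph1a, a gamma-secretase subunit (10.24 ± 0.16). The enzymes pofut1 and poglut1, which place sugars on the receptor, read 10.95 ± 0.25 and 8.41 ± 0.31. The feedback inhibitor nrarp, itself switched on by Notch, read 11.88, 11.93 and 12.06 a.u. (11.96 ± 0.09).

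The genes of that list that were not detected were the ubiquitin ligase dtx1 (2.10 a.u.), the cell adhesion gene cntn1 (2.59 a.u.) and arrb1 (1.94 a.u.). The ubiquitin ligase subunit fbxw7, which marks the cut receptor for breakdown, read 8.85, 7.82 and 8.68 a.u., with replicate 2 lowest. Of the 47 detected probe sets of the list, 2 had a range of 1 or more.

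A list of other bHLH genes held the E proteins, with which proneural factors pair and which Id proteins bind, beside bHLH genes that are not their partners. Of 36 listed genes 25 were measured, and 12 were detected and passed the test, under the share of 80.2% of all named genes. By probe set, 33 of 62 were detected, beside 72.8% of all probe sets with 1 gene symbol. The values given are of the probe set of highest mean, of 8 for tcf3, 4 for tcf12, 4 for max and 7 for myc. Other probe sets of these genes may lie below the minimum. The E proteins were detected as tcf3 (13.05 ± 0.14) and tcf12 (12.38 ± 0.11). The growth regulators max (14.03 ± 0.10) and myc (9.85 ± 0.16) were detected as well. Among bHLH genes of other tissues, tal1, known from blood and endothelium, read 9.09, 9.26 and 9.45 a.u. (9.26 ± 0.18), while hand1, hand2, ptf1a, twist1 and tcf21 had means from 1.85 to 2.31 a.u.

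A further list held genes linked to proneural factors, among them targets of these factors and the repressor rest. Of 28 listed genes 17 were measured. Of these, 8 were detected and all 8 passed the test, again under the share of 80.2% of all named genes. By probe set, 9 of 29 were detected, beside 72.8% of all probe sets with 1 gene symbol. The values given are of the probe set of highest mean per gene. The genes isl1, insm1 and rest had 2, 2 and 4 probe sets, not all of which were detected. The homeobox factor isl1, found in ear sensory and neuronal precursors, read 13.21, 13.33 and 13.38 a.u. (13.31 ± 0.08). The zinc finger factor insm1, known from newborn neurons and hair cells, read 7.19, 6.55 and 7.37 a.u. (7.04 ± 0.43). The factor ebf3 (8.58 ± 0.07) and the repressor rest (9.51 ± 0.21) varied little. Values of the neuronal RNA-binding gene elavl4 were 10.03, 8.79 and 7.50 a.u., and those of the neuronal tubulin tubb3 were 11.94, 11.12 and 10.14 a.u. Both had the order of arrays seen for neurod1.S, and both also stand in the neuron marker list. The neuronal factor myt1 reached the minimum on replicate 1 alone, at 4.14, 2.11 and 2.27 a.u., and pou4f1, ebf2, barhl1, barhl2, lhx3 and prdm12 were at the floor.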

How the data were processed

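Inner ear RNA of 3 juvenile pools was amplified with the Ovation system (NuGEN), labelled with biotin and hybridised to GeneChip arrays for X. laevis. The authors used JMP Genomics for GCRMA, which corrects background by probe sequence and normalizes between arrays, and they deposited a log2 intensity for each probe set on each array. The sources used here do not state if larval arrays were part of that normalization. GCRMA compresses differences near its floor. The background correction was taken as it stood, since no scanner file was analysed here. No column was left unmapped (0), and 96 control probe sets were left out, which left 32539. Of these, 15495 had 1 gene symbol in the platform annotation. Homeologs (L and S) counted as 1 gene, while numbered copies were kept apart. RefSeq served for names only, so no coordinates or sequences are given. Another 2 probe sets with several symbols were left out of the members.

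Detection was a mean of 4 or more, and was tested over all probe sets with limma 3.58.1 in R 4.3.3 (lmFit and eBayes, one-sided, on the value minus 4) with Benjamini-Hochberg adjustment at 0.05. Counts were made in Python 3.11.15 with pandas 2.3.3 and numpy 2.4.6, and figures with matplotlib 3.10.9. The p-values concern a mean above 4, with the spread between pools, moderated over all probe sets, as the error. The analysis of variance between stages in the methods has no counterpart here, as all arrays belong to 1 group. Larval arrays were not analysed here. Pathway genes and cell type markers were lists from textbook knowledge, printed with the probe set of highest mean per gene, and members were taken out of the marker lists. Values on every array were given for members listed for a role in the inner ear, the 6 of largest range and the 6 detected ones of smallest range. The same was done for the 6 of highest mean and genes whose probe sets differed on detection. Other named genes were chosen after their values were seen. Members and lists were chosen with earlier results of these data known. Alternatives were minimums of 3, 5, 6 and 8, difference minimums of 1 and 2, quantile normalization, other probe set classes and detection rules, another limma prior and leaving out each replicate.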

Additional observations from a re-analysis of the deposited data

How the results depend on the processing

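Of 38 alternatives to the counts of detected probe sets, detected genes, probe sets that passed the limma test and probe sets that differed between pools, 34 stayed within 1.5 times the main count. The other 4 all concerned the 2 member probe sets that differed by 1.5 or more. At a difference minimum of 1 there were 5, at a minimum of 2 there was 1, and with each replicate left out there were 1 to 2, with 1 without replicate 1 and 1 without replicate 3. Of 306 alternatives to the detection of single genes 298 kept the call, 3 lost the limma call alone and 5 turned it. Genes at the floor lie below every minimum used and could not change call, so part of the 298 was fixed in advance. The gene hes5.7 (mean 3.85) was detected at a minimum of 3, neurod1 (mean 5.04) was not at 6 or 8, and rbpj (mean 7.46) was not at 8. Without the s_at, x_at and a_at classes rfng (mean 2.21) was not detected. In the same way dll1 (8.33) and maml1 (8.19) no longer passed at 8, nor did dll1 without those classes (4.72). These follow from the minimum or from the fewer probe sets used. With 3 arrays and a floor near 2, low expression of the members called not detected cannot be told apart from none.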

Other observations

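Of the marker lists not set out above, Schwann cell markers were detected in 6 of 7 measured genes, and their probe sets deviated from their own means by a median of 0.15, -0.08 and -0.17 on replicates 1, 2 and 3. Endothelial and smooth muscle markers were detected in 11 of 12 measured genes, with medians of 0.06, -0.07 and -0.03. Proliferating cell markers were detected in 12 of 19 measured genes, with mki67 at 10.11, 9.42 and 10.38 a.u. and ccnb1 and birc5 at the floor (1.93 and 2.18 a.u.). Leukocyte markers were detected in 7 of 9 measured genes, with medians of 0.00, 0.11 and -0.11. The hair cell marker calb1 read 9.35, 7.58 and 6.96 a.u., and the hair cell markers deviated by a median of 0.21, -0.25 and -0.13.

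The 2 probe sets that bear several symbols, of which at least 1 fitted the choice of members, were not named. They read 11.78, 12.39 and 12.51 a.u. (12.23 ± 0.39) and 1.98, 1.99 and 1.99 a.u.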
